A study of Rattus norvegicus with 12 samples.

Results

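The genes described here are the glutathione, NRF2 and pentose phosphate genes of F111 cells, a fibroblast line of the Fischer rat. They are the enzymes that make glutathione and couple it to reactive compounds, the thioredoxin system, enzymes that supply NADPH, and other targets of the transcription factor NRF2 together with NRF2 itself and its inhibitor KEAP1. A list of 46 genes was matched to the probe sets that the array annotation gives a single gene symbol. This found 44 genes on 51 probe sets, out of 14217 genes and 31042 probe sets tested. The remaining genes, Gsta2 and Gsta5, have no probe set with 1 symbol, and the probe set that carries both names was not used for either.

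RNA of 2 groups was measured on rat expression arrays, with 3 arrays per group. Colony cells were F111 cells that had first been held in suspension (NA16), then kept in soft agar for 7 days, released from it and given a short time to attach to a dish, after which the attached cells were collected. A16 cells were F111 cells grown for 16 h attached to plastic. Both groups were the same line in the same medium, and the labels name no drug or altered gene. The authors reported a translocated chromosome in a minority of adherent cells and throughout colony-derived cells, where other chromosomal changes were also more frequent. The translocation involves chromosome 2, which carries the mu class glutathione transferase genes and also Mgst2, Gclm and Slc7a11. Suspension, growth in agar, selection of the cells that form colonies, karyotype, re-attachment and time in culture therefore cannot be told apart between the groups. The part of chromosomal changes in the results below was not tested. Each group had biological replicates 1 and 2 and a technical replicate 2 that has no biological number. The technical array was averaged with biological replicate 1, so that n = 2 cultures per group in the main test. Some of the alternative fits given at the end treat the arrays in other ways. In the Colony group, the labels of biological replicate 2 are at odds, since 1 of them speaks of tumour formation and the rest of colonies. It was kept as Colony, and without it the counts of member genes called higher (10) and lower (0) were as with it.

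NRF2, the product of Nfe2l2, is a transcription factor that KEAP1 marks for degradation in unstressed cells. Oxidants and reactive compounds that modify KEAP1 let NRF2 accumulate, pair with a small Maf protein and bind antioxidant response elements beside genes of detoxification, glutathione synthesis and NADPH supply. Glutathione transferases join glutathione to reactive compounds, glutathione and thioredoxin reductases return the oxidised carriers to their reduced form, and both depend on NADPH, much of which comes from the pentose phosphate pathway. In fibroblasts this system limits oxidative damage.

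In Colony cells 10 of the 44 genes were called higher than in A16 cells, which is 22.7% of the members, beside 4.36% of all genes tested. No member was called lower by its brightest probe set, beside 4.75% of all genes. A gene was called when the Benjamini-Hochberg adjusted p of limma over all probe sets was under 0.05 and the fold change, or FC value, was over 2, and the value of a gene is that of its brightest probe set. The called genes were 7 glutathione transferases (Mgst1, Gstk1, Gsta1, Gsta4, Mgst3, Gstm1 and Mgst2), the quinone reductases Nqo1 and Nqo2, and the aldo-keto reductase Akr1b8. They rose between 2.31-fold and 16.0-fold. None of the 11 enzymes that make, import or recycle glutathione and thioredoxin was called, and neither was any of the 4 genes of NADPH supply. The median log2 difference, Colony minus A16, was 0.29 over the members and 0.05 over all genes. Every Colony array lay above every A16 array for 24 members (54.5%), beside 26.7% of all genes. Every Colony array lay below every A16 array for 3 members (6.82%), beside 20.9% of all genes. With the adjusted p alone and no fold threshold, 16 of the 44 members were higher and 1 was lower. By the same rule 1835 of all 14217 genes were higher and 1534 were lower. The members were chosen with results of these arrays known, so these counts describe the list and are not a test of it.

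**Figure D1:**
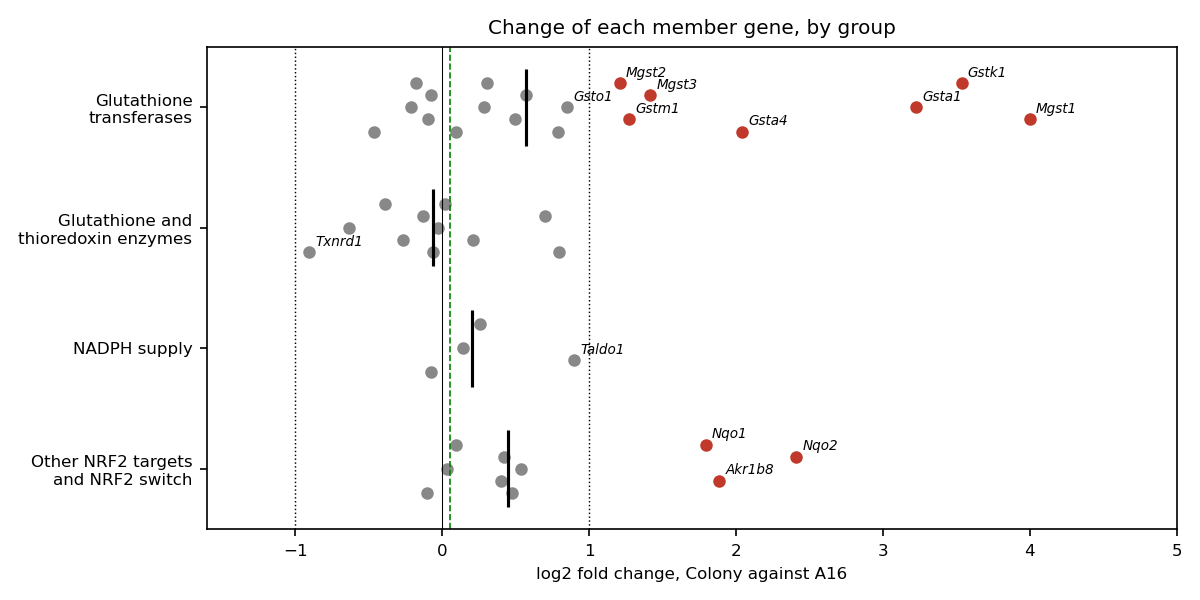
Log2 fold change, Colony against A16, of each of the 44 member genes (horizontal axis) in 4 groups (vertical axis); red points are genes called higher, grey points are not called, black bars are group medians, the green dashed line is the median of all genes and the dotted lines mark an FC value of 2 in either direction. The called genes lie in 2 of the groups, the glutathione transferases, with Mgst1 farthest out, and the other NRF2 targets.

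The arrays were alike in overall level, with median RMA intensities of 97.6 to 99.4 on Colony arrays and 99.3 to 101 on A16 arrays. The SD of the log2 difference between arrays was 0.17 to 0.33 within a group and 0.67 to 0.76 between the groups. The fibroblast label was checked on 10 marker genes. Vim, the intermediate filament vimentin, had a log2 RMA level of 14.44 in Colony cells and 14.28 in A16 cells, while the proteoglycan genes Dcn (4.60 in Colony cells and 4.67 in A16 cells) and Lum (4.51 in Colony cells and 5.28 in A16 cells) were low in both. Col1a1, Col3a1 and Thy1 fell in Colony cells, with log2 differences of -2.72, -1.40 and -1.31, while Pdgfra, a growth factor receptor, was above on every Colony array (0.55, adjusted p = 0.0232) under the fold threshold. The summed RMA intensity of the 10 markers was 38100 to 43079 on Colony arrays and 55760 to 68675 on A16 arrays. Of 6 leukocyte markers only Csf1r was called, with a log2 difference of 4.01. Ptprc was at 0.14, and Cd14 was below on every Colony array (-0.56, adjusted p = 0.0366) under the fold threshold. Of 6 epithelial markers only Krt8 was called, at 2.13. Epcam was at -0.13, and Cdh1 was above on every Colony array (0.74, adjusted p = 0.00979) under the fold threshold. None of 3 endothelial and 5 hepatocyte markers was called. The summed intensities were 1483 to 1597 on Colony arrays and 1136 to 1293 on A16 arrays for the leukocyte list, and 3154 to 3913 on Colony arrays and 909 to 1014 on A16 arrays for the epithelial list. They were 107 to 151 on Colony arrays and 94.6 to 109 on A16 arrays for the endothelial list, and 366 to 398 on Colony arrays and 320 to 386 on A16 arrays for the hepatocyte list. The part of these marker changes in the results below was not tested. In RNA of a whole culture, fewer cells of a type and less RNA per cell cannot be told apart. Without calls of presence or absence, how many of the dim probe sets exceed background is unknown.

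The NRF2 gene itself was not called. Nfe2l2 had RMA intensities of 3443, 3462 and 3970 on Colony arrays and 3811, 4111 and 4000 on A16 arrays. Here and below, the first value of each group belongs to biological replicate 1, the next to the technical array and the last to biological replicate 2. The groups overlapped, and the log2 difference was -0.10, with a 95% confidence interval of -0.43 to 0.22. For Keap1, the adaptor through which a cullin ligase recognises NRF2, the brightest probe set gave 774, 580.1 and 471 on Colony arrays and 414, 453 and 418 on A16 arrays. The Colony arrays lay above the A16 arrays but spread widely, and the log2 difference of 0.40 did not pass the test (limma adjusted p = 0.187). The dimmer probe set of Keap1 moved the other way. It gave 121, 79.4 and 82.6 on Colony arrays and 236, 218 and 472 on A16 arrays, and was called lower with a log2 difference of -1.86 (SE 0.32, adjusted p = 0.00723). The highest A16 value came from biological replicate 2, and without that culture the difference was -1.34 and still called.

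To set the changes beside the sequence at the start of each gene, the 250 bases before and 50 bases after the annotated transcription start were searched on both strands. The motifs were TGACNNNGC, the core of the antioxidant response element that NRF2 binds with a small Maf partner, and TGANTCA. The latter pattern takes in the AP-1 elements TGACTCA and TGAGTCA, which can lie within an antioxidant response element, and also other letters at its N. RefSeq windows on the rat build GRCr8 were found for 39 of the 44 measured genes. TGACNNNGC stood in 11 of the 42 windows of these genes (26.2%), 1 each for 11 of the 39 genes, and in 12.1% of the 33469 windows of all genes. Of the 9 called genes with a window, 1 held it (Gsta1, at 30 bases after the start), against 10 of the 30 genes that were not called. TGANTCA stood in 7 of the 42 windows (16.7%), of 7 genes with 1 of them called (Mgst1), and in 7.33% of all windows. The match of Mgst1 reads TGATTCA, and those of the genes that were not called read TGACTCA or TGAGTCA. Gstp1, Me1, Ephx1 and Gstm5, none of them called, held both motifs, which overlap at Gstp1, Me1 and Ephx1. A match is a description of the letters and not a measured binding site, and a window without one says only that these letters are not in it. The 250 bases before the start are shown 5′ to 3′ on the strand of the gene for 4 members that behaved differently: Mgst1 and Nqo1, called higher, Gstp1, a small rise under the fold threshold, and Txnrd1, lower. Capitals mark the motifs: TGANTCA at -140 in Mgst1 (chr4:172760680-172760929, + strand), TGACNNNGC overlapping TGANTCA at -61 in Gstp1 (chr1:210769706-210769955, - strand), TGACNNNGC at -78 in Txnrd1 (chr7:22755905-22756154, - strand), where it reads on the strand opposite to the gene and so appears as its reverse complement, and none in Nqo1 (chr19:52220268-52220517, - strand). Txnrd1 has 2 annotated starts, and the window shown was chosen because it holds TGACNNNGC. The window of the other start holds neither motif. Positions count from the transcription start to the lowest base of the match.
Mgst1: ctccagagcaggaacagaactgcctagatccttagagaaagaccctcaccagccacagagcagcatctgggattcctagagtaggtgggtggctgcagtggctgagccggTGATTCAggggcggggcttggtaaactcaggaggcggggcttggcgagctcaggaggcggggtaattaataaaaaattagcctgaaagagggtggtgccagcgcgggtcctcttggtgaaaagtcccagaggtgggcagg
Nqo1: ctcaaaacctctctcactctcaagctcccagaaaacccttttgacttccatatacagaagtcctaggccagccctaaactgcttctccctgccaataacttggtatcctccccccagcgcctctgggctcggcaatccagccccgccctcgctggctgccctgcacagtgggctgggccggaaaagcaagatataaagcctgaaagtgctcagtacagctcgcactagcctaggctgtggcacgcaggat
Gstp1: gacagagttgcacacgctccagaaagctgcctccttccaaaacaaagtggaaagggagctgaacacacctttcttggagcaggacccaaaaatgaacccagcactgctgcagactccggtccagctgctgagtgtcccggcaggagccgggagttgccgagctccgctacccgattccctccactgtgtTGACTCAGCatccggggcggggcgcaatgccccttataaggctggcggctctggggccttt
Txnrd1: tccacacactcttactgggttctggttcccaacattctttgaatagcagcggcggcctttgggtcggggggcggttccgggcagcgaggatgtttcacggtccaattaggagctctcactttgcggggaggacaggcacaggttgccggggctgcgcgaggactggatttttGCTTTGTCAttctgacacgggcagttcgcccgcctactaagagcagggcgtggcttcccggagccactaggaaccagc

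Among the 19 transferases measured, 7 were called higher (36.8%, beside 4.36% of all genes) and none lower (beside 4.75%), and the median log2 difference was 0.57. The 3 membrane-bound transferases were all called. Mgst1, the microsomal glutathione transferase of the endoplasmic reticulum and outer mitochondrial membrane, had intensities of 3110, 3072 and 3328 on Colony arrays, against 204, 219.8 and 190.1 on A16 arrays. Its FC value of 16.0 was the highest among the members, with an SE of 0.14 on the log2 scale (adjusted p = 1.39e-05), far above the spread between arrays of either group. Mgst3, a related membrane enzyme that also reduces lipid hydroperoxides, had 749.6, 691 and 772 on Colony arrays and 261, 314 and 272 on A16 arrays. It was 2.67-fold higher (log2 difference 1.42, SE 0.13, adjusted p = 0.000577). Mgst2, which can also join glutathione to a leukotriene, had 9082, 8706 and 8415 on Colony arrays and 3754, 4335 and 3463 on A16 arrays, and was 2.31-fold higher (1.21, SE 0.14, adjusted p = 0.00153). The groups overlapped for none of these genes. Gstk1, the kappa class transferase of mitochondria and peroxisomes, was next to Mgst1 in size of change. It had 653, 533 and 459 on Colony arrays and 65.7, 44.8 and 37.1 on A16 arrays, where biological replicate 1 was the highest of its group in both. The FC value was 11.6 (log2 difference 3.54, SE 0.22, adjusted p = 0.000112). Its A16 mean was above 31.6% of probe sets only, so the size of the fold is uncertain.

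Of the 15 cytosolic transferases, 3 were called higher and 12 were not called. Gsta1, an alpha class enzyme that also reduces organic peroxides, had 236, 269 and 353 on Colony arrays and 30.2, 42.5 and 28.4 on A16 arrays, an FC value of 9.35 (log2 difference 3.22, SE 0.20, adjusted p = 0.000121). Only 19.6% of probe sets had a lower A16 mean than this one, which leaves the fold uncertain. Gsta3, the gene next to Gsta1 on chromosome 9, with no other coding gene between them in the annotation, had a log2 difference of only 0.28 (95% interval -0.09 to 0.66) and an A16 mean that was above 5.85% of probe sets only. Gsta4, which takes up the lipid aldehyde hydroxynonenal, had 421, 459 and 574 on Colony arrays and 117, 109 and 132 on A16 arrays. It was 4.11-fold higher (log2 difference 2.04, SE 0.17, adjusted p = 0.00044), with no overlap. It lies on chromosome 8 with Gclc and the unmeasured Gsta5 and Gsta2. Alpha class genes are alike in sequence, so which paralog a probe set reports is uncertain.

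The mu class genes form a cluster on chromosome 2, in the order Gstm5, Gstm7, Gstm3, Gstm2, Gstm1 and Gstm4 with 3 other coding genes among them, and 1 of the 6 was called. Gstm1 had 967, 1012 and 976 on Colony arrays and 416, 397 and 407 on A16 arrays, with the arrays of each group close to each other. It was 2.42-fold higher (log2 difference 1.27, SE 0.13, adjusted p = 0.000786) and is the called gene. On one side of it Gstm4 had 617, 601 and 623 on Colony arrays and 367, 385 and 338 on A16 arrays, a log2 difference of 0.79 (adjusted p = 0.00663) that stayed under the fold threshold. On the other side Gstm2 had 953, 877 and 752 on Colony arrays and 886, 1022 and 1368 on A16 arrays, a log2 difference of -0.46 whose 95% interval ran from -0.95 to 0.03. Its Colony and A16 arrays overlapped, with A16 biological replicate 2 the highest of all. Gstm5 (0.50, adjusted p = 0.0508), Gstm7 (0.30) and Gstm3 (0.10) lay between these. The intervals of Gstm1 and Gstm2 did not overlap. Mu class genes too share much of their sequence, so that the paralog behind each value is uncertain.

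**Figure D2:**
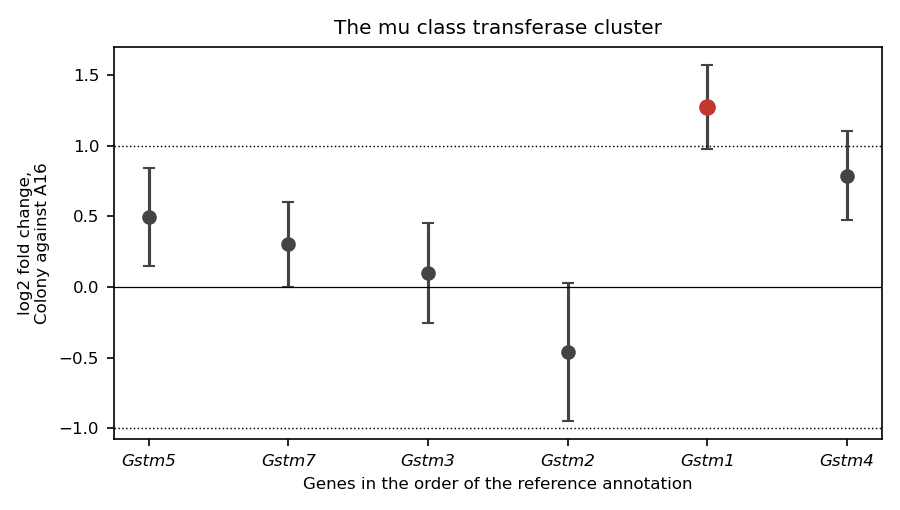
Log2 fold change, Colony against A16, with its 95% confidence interval (vertical axis) for the 6 mu class genes in their order along chromosome 2 (horizontal axis, not to scale); the red point is called higher and the dotted lines mark an FC value of 2 in either direction. The changes run from -0.46 at Gstm2 to 1.27 at its neighbour Gstm1.

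Gstp1, the pi class enzyme much studied in tumour cells, had 9781, 9485 and 9739 on Colony arrays and 6379, 6947 and 6391 on A16 arrays. The groups did not overlap, and the log2 difference of 0.57 (SE 0.13, adjusted p = 0.0189) was a small rise below the fold threshold in a gene whose promoter above holds both motifs. With 1 culture left out the adjusted p of Gstp1 ran from 0.0466 to 0.084. Gsto1, the omega class enzyme that also reduces dehydroascorbate, had 4341, 4563 and 3903 on Colony arrays and 2503, 2821 and 2001 on A16 arrays, a log2 difference of 0.85 (adjusted p = 0.0142). It was 1.06 and called without A16 biological replicate 1, 0.65 (adjusted p = 0.0486) without A16 biological replicate 2, and 0.76 with an adjusted p of 0.0617 without Colony biological replicate 1. The zeta class gene Gstz1, which isomerises maleylacetoacetate in tyrosine breakdown, had 378, 388 and 416 on Colony arrays and 450.2, 492 and 455 on A16 arrays. By brightest probe sets it was the only transferase with every Colony array below every A16 array, though the difference of -0.21 did not pass the test (adjusted p = 0.313). The 3 theta class genes on chromosome 20 lay between -0.18 and -0.07 by their brightest probe sets, and their groups overlapped. For the brightest probe set of Gstt2 the sign depended on the summary, as PLIER gave 0.27. The dimmer probe set of Gstt2 had -0.26 with every Colony array below every A16 array, and did not pass the test (limma adjusted p = 0.207).

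Of the 11 glutathione and thioredoxin genes none was called and the median log2 difference was -0.06, but both subunits of the first enzyme of glutathione synthesis rose by less than the fold threshold. Gclc, the catalytic subunit of glutamate-cysteine ligase, had 1232, 1159 and 1335 on Colony arrays and 782, 720.4 and 702 on A16 arrays, a log2 difference of 0.80 (SE 0.14, adjusted p = 0.00681) with no overlap. Its dimmer probe set had -0.31 (95% interval -0.74 to 0.11), so the rise was seen on 1 probe set of 2, and the mean of both was 0.24 (adjusted p = 0.245). Gclm, the modifier subunit of the same ligase, had 1399, 1306 and 1352 on Colony arrays and 738, 685 and 969 on A16 arrays, a log2 difference of 0.70 (SE 0.17, adjusted p = 0.0287). The adjusted p of Gclc stayed below 0.05 with any 1 culture left out, while that of Gclm was 0.104 without A16 biological replicate 1, at a difference of 0.48, 0.0861 without Colony biological replicate 1 and 0.0907 without Colony biological replicate 2. Gss, which adds the glycine, had a difference of -0.03, and Slc7a11, which imports the cystine, had 149.5, 186 and 188 on Colony arrays and 229.7, 254 and 222 on A16 arrays. Slc7a11 was thus lower on every Colony array, by a difference of -0.39 that did not pass the test (adjusted p = 0.0928). Ggt1, the surface enzyme that starts the breakdown of glutathione outside the cell, differed by -0.27 with overlapping groups.

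The glutathione and thioredoxin reductases among the members differed in direction, and none was called by its brightest probe set. Gsr, which returns oxidised glutathione to its reduced form, had 219.5, 225 and 159.8 on Colony arrays and 293, 225 and 334 on A16 arrays. The groups overlapped by 1 array, and the log2 difference of -0.64 had a 95% interval of -1.13 to -0.14 and an adjusted p of 0.0739. Txnrd1, the cytosolic thioredoxin reductase and a known NRF2 target, had 1959, 1896 and 1708 on Colony arrays and 3781, 4223 and 2892 on A16 arrays by its brightest probe set. Every Colony array lay below every A16 array, and Txnrd1 was the only member that fell by the adjusted p, with a log2 difference of -0.91 (SE 0.18, adjusted p = 0.0138) that stayed within the fold threshold. Its dimmer probe set had 795, 707 and 615 on Colony arrays and 2325, 2112 and 3205 on A16 arrays and was called lower at -1.97 (SE 0.21, adjusted p = 0.00102). Averaged over both probe sets the gene would be called lower, at -1.44. On the brightest probe set the difference depended on the cultures, at -1.14 and called without A16 biological replicate 2, -0.67 without A16 biological replicate 1, and -0.82 with an adjusted p of 0.0614 without Colony biological replicate 2. The mitochondrial reductase Txnrd2, above on every Colony array (0.21, 95% interval -0.09 to 0.51), cytosolic thioredoxin Txn1 (0.02, -0.29 to 0.32) and mitochondrial thioredoxin Txn2 (-0.13, -0.44 to 0.19) were not called.

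Srxn1, the sulfiredoxin that repairs overoxidised peroxiredoxins and a known NRF2 target, has 3 probe sets that disagreed. The brightest had 700.0, 664 and 661 on Colony arrays and 689, 743 and 688 on A16 arrays, with overlap and a difference of -0.06. The second had 97.5, 75.7 and 70.5 on Colony arrays and 294, 237 and 378 on A16 arrays, and was called lower at -2.02 (SE 0.20, adjusted p = 0.000871). The dimmest had -0.02, and its A16 mean was above 17.2% of probe sets only. Counted by probe set, 10 of the 51 were called higher, beside 3.91% of the 20826 probe sets with 1 gene symbol, and 3 were called lower, beside 7.29% of these. All 3 that were lower, of Keap1, Txnrd1 and Srxn1, were dimmer probe sets of a gene whose brightest was not called. They kept the call in all 13 refits, between -1.34 and -2.39 for Keap1, -1.71 and -2.24 for Txnrd1, and -1.76 and -2.28 for Srxn1. In total 6 member genes had several probe sets, and which stretch of the transcript each probe set reads was not analysed here.

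**Figure D3:**
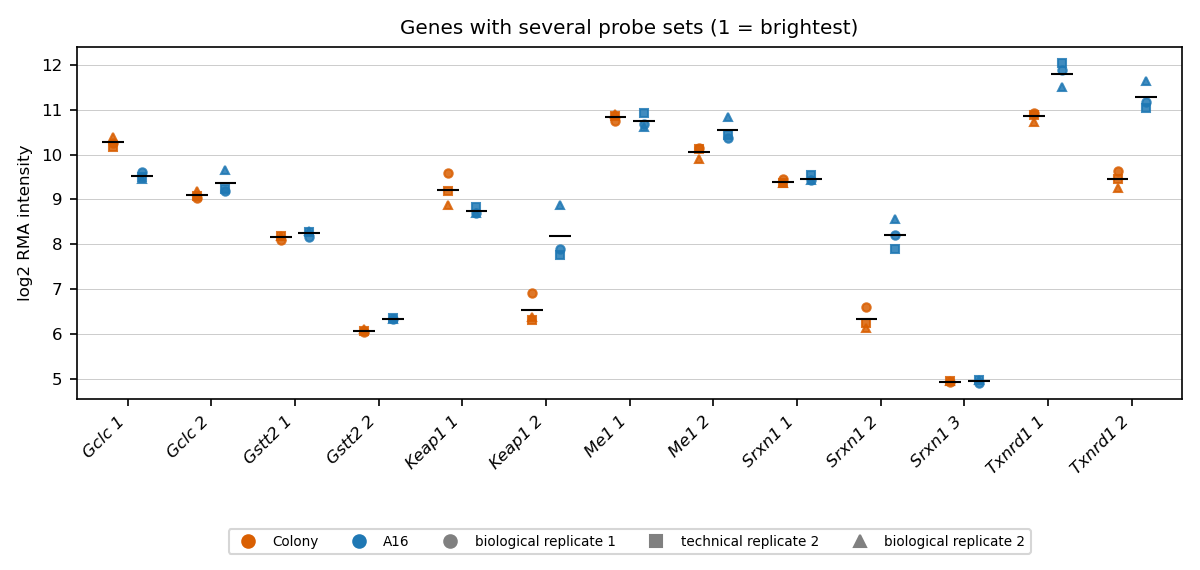
Log2 RMA intensity on each array (vertical axis) of every probe set of the 6 genes with more than 1, numbered by brightness (horizontal axis); orange points are Colony arrays, blue points are A16 arrays, shapes give the replicate and black bars the mean of the 3 arrays. The second probe sets of Keap1, Srxn1 and Txnrd1 lie lower on all Colony arrays, while the brightest of Keap1 lies higher and the brightest of Srxn1 overlaps.

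None of the 4 genes of NADPH supply was called, and their median log2 difference was 0.20. Pgd, the phosphogluconate dehydrogenase that yields NADPH in the oxidative branch, had 3206, 2777 and 2636 on Colony arrays and 3109, 2774 and 2960 on A16 arrays. The groups overlapped, and the log2 difference of -0.07 had a 95% interval of -0.39 to 0.25. Tkt, the transketolase of the non-oxidative branch, had 3487, 3104 and 3473 on Colony arrays and 2672, 2795 and 2930 on A16 arrays. All its Colony arrays were higher, by a difference of 0.26 that did not pass the test (adjusted p = 0.224). Taldo1, the transaldolase of the same branch, had 6353, 6833 and 7166 on Colony arrays and 4114, 4143 and 3295 on A16 arrays. It rose by the adjusted p with a log2 difference of 0.90 (SE 0.16, adjusted p = 0.00773) under the fold threshold, and it was 1.06 and called without A16 biological replicate 1 and 0.73 (adjusted p = 0.026) without A16 biological replicate 2. Me1, the cytosolic malic enzyme, which makes NADPH from malate, had 0.14 with overlapping groups on its brightest probe set and -0.59 on the dimmer one.

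Of the 10 other NRF2 targets and regulators 3 were called higher (beside 4.36% of all genes) and none lower (beside 4.75%), with a median log2 difference of 0.45. Both quinone reductases were among them. Nqo1, which reduces quinones in a single step and is a classical NRF2 target, had 7427, 7214 and 8530 on Colony arrays and 2499, 2313 and 2162 on A16 arrays, an FC value of 3.47 (log2 difference 1.79, SE 0.15, adjusted p = 0.000355). Its promoter window is the one shown above without a match. Nqo2, a related enzyme that uses dihydronicotinamide riboside in place of NADPH, had 357, 349 and 340.4 on Colony arrays and 64.0, 67.4 and 64.6 on A16 arrays. It was 5.32-fold higher (log2 difference 2.41, SE 0.13, adjusted p = 5.89e-05), with little spread in either group. The A16 mean of Nqo2 was above 40.6% of probe sets. Akr1b8, an aldo-keto reductase that reduces aldehydes, had 11360, 10366 and 10420 on Colony arrays and 2967, 3185 and 2686 on A16 arrays, an FC value of 3.70 (log2 difference 1.89, SE 0.14, adjusted p = 0.000211).

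The remaining genes of this group were not called. Hmox1, the heme oxygenase that is induced by many stresses, had 1261, 1019 and 863 on Colony arrays and 645, 698 and 816 on A16 arrays. All Colony arrays were above all A16 arrays, but biological replicate 2 of both groups came close, and the log2 difference of 0.42 (95% interval -0.01 to 0.85) had an adjusted p of 0.159. The carbonyl reductase Cbr3 (0.54, adjusted p = 0.0817) and the epoxide hydrolase Ephx1 (0.47, adjusted p = 0.0624) were likewise above on every Colony array without passing the test. Cbr1, which lies with Cbr3 on chromosome 11, had 0.03 (95% interval -0.27 to 0.34), and the aldehyde reductase Akr7a3 had 0.09 (-0.25 to 0.44).

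**Figure D4:**
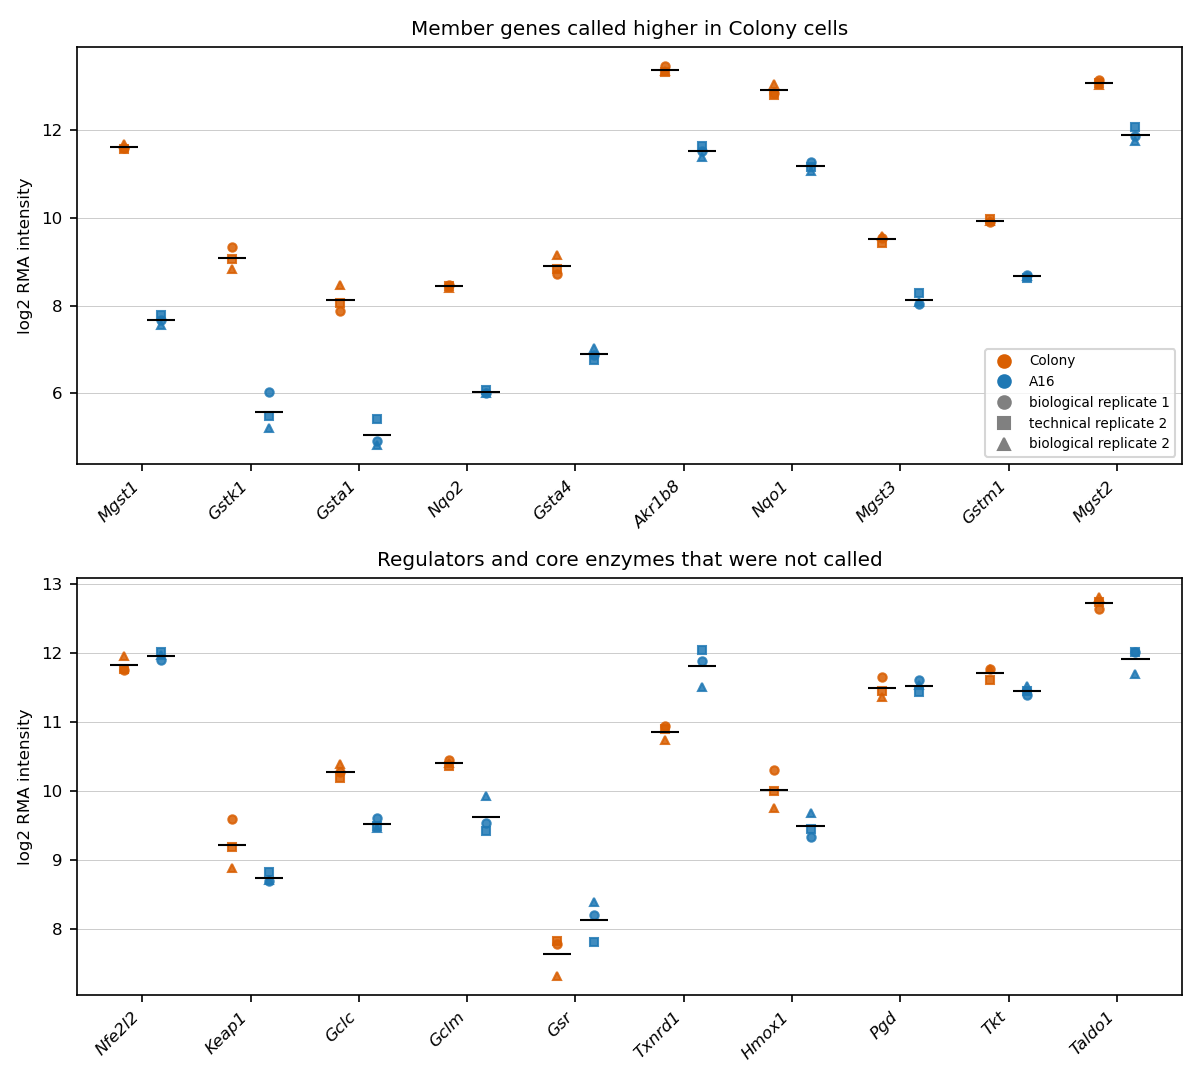
Log2 RMA intensity on each array (vertical axis) of the 10 genes called higher (upper panel) and of 10 regulators and core enzymes that were not called (lower panel); orange points are Colony arrays, blue points are A16 arrays, shapes give the replicate and black bars the mean of the 3 arrays. In the upper panel no Colony array meets an A16 array, while in the lower panel Nfe2l2, Gsr and Pgd overlap and Txnrd1 is lower in Colony cells.

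Further genes of these pathways were taken from 4 lists that hold no member, on which 57 of 64 genes were measured. Of these, 7 were called higher (12.3%, beside 4.36% of all genes) and 6 lower (10.5%, beside 4.75% of all genes). With the mean of all probe sets of a gene, 4 were higher and 5 lower. In the list of other glutathione and thioredoxin genes, 3 of 24 were higher (12.5%) and 4 were lower (16.7%). Txnrd3, a thioredoxin and glutathione reductase best known from testis, had 592, 702 and 626 on Colony arrays and 151, 128 and 98.0 on A16 arrays, a log2 difference of 2.44 (adjusted p = 0.000266). Oplah, the oxoprolinase that returns glutamate to glutathione synthesis, had 5094, 4435 and 3879 on Colony arrays and 705, 789.9 and 1075 on A16 arrays, a log2 difference of 2.26 (adjusted p = 0.000571). Neither of these genes overlapped between the groups. Ggt7, a relative of Ggt1, had a log2 difference of -1.56, and Txnip, the inhibitor of thioredoxin, one of -1.36 with 528, 589 and 632 on Colony arrays and 1845, 1754 and 1293 on A16 arrays.

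In the list of other pentose phosphate and NADPH genes, 1 of 12 was higher (8.33%, beside 4.36% of all genes) and none was lower (beside 4.75%). This was Rpia, the ribose phosphate isomerase, with 2019, 1940 and 1948 on Colony arrays and 609.7, 545 and 529 on A16 arrays and a log2 difference of 1.83 (SE 0.13, adjusted p = 0.000193). Its dimmer probe set had 0.15, and the mean of both was 0.99, which is no longer called. Dimmer probe sets of the phosphoribosyl pyrophosphate synthetases Prps1 and Prps2 were called lower, at -1.40 and -1.09, where the brightest were not.

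Among 9 measured partners and regulators of NRF2 none was higher (beside 4.36% of all genes) and 2 were lower (22.2%, beside 4.75% of all genes). In a list this short 1 gene makes a large share. Both lower genes encode small Maf proteins, which pair with NRF2 on DNA and can also block its sites as pairs of their own. Mafk had 254, 251 and 248 on Colony arrays and 579, 699 and 629.9 on A16 arrays, a log2 difference of -1.34 (SE 0.13, adjusted p = 0.000637) with little spread. Maff had 142, 148 and 93.4 on Colony arrays and 246, 288 and 280.2 on A16 arrays, a log2 difference of -1.23 (adjusted p = 0.00762), which without Colony biological replicate 2 was -0.91 and no longer called. Of 12 further NRF2 target genes 3 were higher (25.0%, beside 4.36% of all genes) and none was lower (beside 4.75%). They were Aldh3a1, an aldehyde dehydrogenase (1.52, adjusted p = 0.000902), Slc48a1, a heme transporter (1.15, 0.00331), and Akr1b1, the aldose reductase (1.14, 0.00217). Aldh3a1 had 1053, 875 and 836 on Colony arrays and 267, 307 and 343 on A16 arrays. The call of Akr1b1 was lost with the mean of its probe sets, at 0.78.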

How the data were processed

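RNA of Colony and A16 cells was hybridised to 6 Affymetrix rat arrays. Each probe set was summarised by RMA and, separately, by PLIER (versions not given in the sources used here), and the authors deposited linear intensity values from both. The RMA intensity was put on the log2 scale without an offset. PLIER was used as log2(value + 16). The 57 control probe sets of 31099 were left out, and 31042 were fitted with lmFit and eBayes of limma 3.58.1 (R 4.3.3, prior degrees of freedom 4.76), with Benjamini-Hochberg adjustment over all of them. Tables were made in Python 3.11.15. The code was tested on simulated data.

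The annotation gave 1 symbol to 20826 probe sets, several to 436 and none to 9780. Symbols of 20758 were brought up to date by gene identifier and of 2 by accession through a RefSeq table of GRCr8, which also gave the order of the genes. Promoter windows came from RefSeq. Values by array are given for called members and for Nfe2l2, Keap1, Gclc, Gclm, Gsr, Txnrd1, Nqo1, Hmox1, Pgd, Tkt and Taldo1, with up to 4 called genes of each further list by size of change and dimmer probe sets whose call differs; values by array of other members were added after they were seen. Members, lists and tests were chosen with earlier results of these data known.

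The labels call the cultures biological replicates, say no more of their origin and give no slide or scan date. The p-values therefore speak of the spread between these samples only, and no array batch was tested. For each gene limma draws this spread toward that of all probe sets, with prior degrees of freedom of 4.76. Whether equal biological numbers pair the groups is not stated. The correlation of their deviations was -0.15, which with 2 cultures per group cannot decide this. Precision is limited by the number of arrays. Alternatives were PLIER, 4 other treatments of the technical arrays, the replicate number as a block, a filter on dim probe sets, quantile normalization, the mean of a gene's probe sets, no fold threshold, the methods' t-test, and leaving out each culture.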

Additional observations from a re-analysis of the deposited data

How the results depend on the processing

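All 10 called members kept the call in 13 refits, of which the fit of 6 separate arrays counts the technical arrays as independent samples. The members called higher were 10 and those lower 0 in each of these fits except without A16 replicate 1 and without A16 replicate 2, and with the mean of all probe sets. Leaving out 1 culture gave 10 to 12 members higher, 0 to 1 lower and 2794 to 3637 probe sets called, against 3045 with all. Such a fit has 1 culture in a group, assumed to vary like the other. The additional higher members without A16 replicate 1 were Gsto1 and Taldo1, both 1.06, and the lower one without A16 replicate 2 was Txnrd1, -1.14. The mean of all probe sets gave 1 member lower, Txnrd1 at -1.44, and ended the calls of the further pathway genes Rpia (0.99), Akr1b1 (0.78), Glrx (0.54, 1.00 on its brightest probe set) and Nxn (-0.55), leaving 4 higher and 5 lower of 57. Maff was -0.91 and not called without Colony replicate 2. With no fold threshold 7056 probe sets, 16 members higher and 1 lower passed, beside 1835 higher and 1534 lower of all 14217 genes. The methods' t-test called 2383 probe sets and 10 members higher at its unadjusted p, and 0 probe sets and 0 members after Benjamini-Hochberg, where limma called 3045 and 10. The fit with the replicate number as a block called 3121 probe sets, and with crossed numbers, a pairing chosen after seeing the data, 3135. The replicate block changed no call of a member.

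Signs turned for 10 members that were not called. With 1 culture left out in turn, Gstm3 ran between -0.048 and 0.24, Gstt3 between -0.16 and 0.011, Txn1 between -0.037 and 0.072, Pgd between -0.16 and 0.017, Akr7a3 between -0.042 and 0.23, and Cbr1 between -0.0073 and 0.073. PLIER turned Gstt2 (0.27), Gss (0.015) and Pgd (0.071). Without the technical arrays Gstt3 was 0.0029. Txn1 was -0.0054 with 6 separate arrays and -0.024 with the technical arrays averaged into replicate 2. The mean of all probe sets turned Me1 (-0.22) and Keap1 (-0.73), whose probe sets disagree. The cause of the other changes was not tested.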
